A study of Bos taurus with 60 samples.

Results

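A set of 5 bovine microRNAs (miRNAs) of the miR-199 and miR-214 families was examined in the liver of 60 beef steers, namely bta-miR-199a-3p, bta-miR-199a-5p, bta-miR-199b, bta-miR-199c and bta-miR-214. They were taken by name, 5 of the 1030 mature miRNAs counted. Small RNA from 1 liver library per steer was sequenced for 20 Angus, 20 Charolais and 20 Kinsella Composite (KC) steers, KC being a crossbred population made from Angus, Charolais or Alberta Hybrid bulls and a hybrid dam line. In each breed 6 steers carried the label of low residual feed intake (low-RFI, feed-efficient), 6 of high residual feed intake (high-RFI), and 8 had no RFI group. Residual feed intake is the feed an animal eats beyond what its weight and growth predict. According to the study, the livers used came from steers at both ends of the RFI range of each breed. Steers without an RFI group are thus also from these ends and not intermediate animals, but their labels do not say which end. All steers were castrated after birth, raised on 1 ranch and fed 1 barley-based finishing diet, and none received a treatment. They were slaughtered in the year after their birth, at mean ages that differed between the breeds according to the study, so breed and age cannot be told apart here. The RFI steers were chosen, according to the study, for extreme RFI and also for miRNA expression like that of the rest of their breed. Such a choice can limit how far RFI groups stand apart and can also narrow the spread within them. Its effect was not tested. Of the 60 steers, which carried 23 sire labels, many were half-sibs, and animals of 1 sire are not fully independent. The sire label of KC low-RFI replicate 3 has another form than the rest and may not name a known sire.

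A miRNA of about 22 bases guides a silencing complex to messenger RNAs, mostly through pairing of its seed, bases 2 to 8 from the 5′ end. Each hairpin precursor can give a mature miRNA from its 5′ arm (5p) and from its 3′ arm (3p). The miR-199 and miR-214 miRNAs are known from mesenchymal cells, and in liver they are associated with hepatic stellate cells, the vitamin A storing cells that turn into collagen-producing myofibroblasts in fibrosis. In bulk liver, a lower number of cells of one type and less miRNA per cell cannot be told apart.

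The mature sequences are shown because 2 of the family members differ by a shift of 1 base and another pair by 2 substitutions, which bears on how their reads were counted. Capitals mark the seed.
bta-miR-199a-3p: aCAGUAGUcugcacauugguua
bta-miR-199c: uACAGUAGucugcacauugg
bta-miR-199a-5p: cCCAGUGUucagacuaccuguu
bta-miR-199b: cCCAGUGUuuagacuaucuguuc
bta-miR-214: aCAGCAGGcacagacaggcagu

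The 5 miRNAs held 4 seeds. bta-miR-199a-5p and bta-miR-199b, both 5p products, had the same seed and differed at C10U and C17U, counted from the 5′ end with the base of bta-miR-199a-5p first, besides 1 extra base at the 3′ end of bta-miR-199b. Bases 1 to 19 of bta-miR-199a-3p were identical to bases 2 to 20 of bta-miR-199c. Because bta-miR-199c starts 1 base earlier, its seed is ACAGUAG and not CAGUAGU, and its bases 2 to 7 were those of bta-miR-101 and bta-miR-144, the latter an erythroid miRNA. Among 588 mature sequences searched, no other miRNA had the seed of bta-miR-199a-3p, bta-miR-199c or bta-miR-214. bta-miR-214 was the richest in G and C, with 59.1% against 40.9% for bta-miR-199a-3p.

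In the RefSeq annotation of assembly ARS-UCD2.0, 4 of the 5 precursors overlap genes of dynamins, the GTPases that pinch off membrane vesicles. The precursors mir-199a-1 and mir-214 overlap both DNM3 and the long noncoding RNA gene LOC132342463 on chromosome 16, mir-199a-2 overlaps DNM2 on chromosome 7 and mir-199b overlaps DNM1 on chromosome 11. The precursor mir-199c overlaps NUP88, a gene of the nuclear pore, on chromosome 19. Strand was not used, so the overlap does not say which gene is the host. The gene of mir-214 overlaps that of mir-3120, and those of mir-199a-2 and mir-199b overlap copies of mir-3604. These overlapping miRNAs, looked up after the member values were seen, were nearly silent: bta-miR-3120 had 12 reads in all, in 10 of 60 steers with at most 2 in any, and bta-miR-3604 had 0.

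The deposited files give reads per combination of mature miRNA and hairpin (a pair), and 1155 pairs were listed for all 3 breeds. Of these, 7 belonged to the 5 miRNAs, since bta-miR-199a-3p and bta-miR-199a-5p were each listed for mir-199a-1 and mir-199a-2 and the others for 1 precursor. Where a miRNA had several such pairs, the mean of their counts was used. The counts of bta-miR-199a-5p on its 2 precursors were equal in 56 of 60 steers and within 1 read in all 60. Those of bta-miR-199a-3p differed by 0.721% to 1.83%, with on average 67.9 more reads on mir-199a-1. The share of reads made from each locus cannot be told apart in these counts.

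For KC alone, 52 further pairs were listed, and 4 of them concern these miRNAs. Of these, 3 put bta-miR-199c on mir-199a-1, mir-199a-2 and mir-199b, and the other puts bta-miR-199a-3p on mir-199b. The effect on bta-miR-199c was large. On its own precursor mir-199c it had 153 ± 40.5 reads (SD, n = 20) in KC, beside 94.7 ± 30.4 in Angus and 114 ± 26.8 in Charolais (n = 20 each). The extra KC pairs held 7150 ± 1785 reads on mir-199a-1 and 7069 ± 1771 on both mir-199a-2 and mir-199b. They repeated the counts of bta-miR-199a-3p. On mir-199a-1 the counts of both miRNAs were identical in 16 of 20 steers and within 1 read in all 20. The same held on mir-199a-2 and on mir-199b.

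Averaging all KC pairs raised the mean of bta-miR-199c in KC from 153 to 5360 reads, 34.9-fold, and by between 30.4- and 42.2-fold in single steers. bta-miR-199a-3p moved only to 0.998 times its value, because its extra pair repeated the count on mir-199a-2 in 20 of 20 steers. The other 3 miRNAs had no extra pair. All values that follow rest on the pairs listed for all 3 breeds unless stated otherwise.

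**Figure D1:**
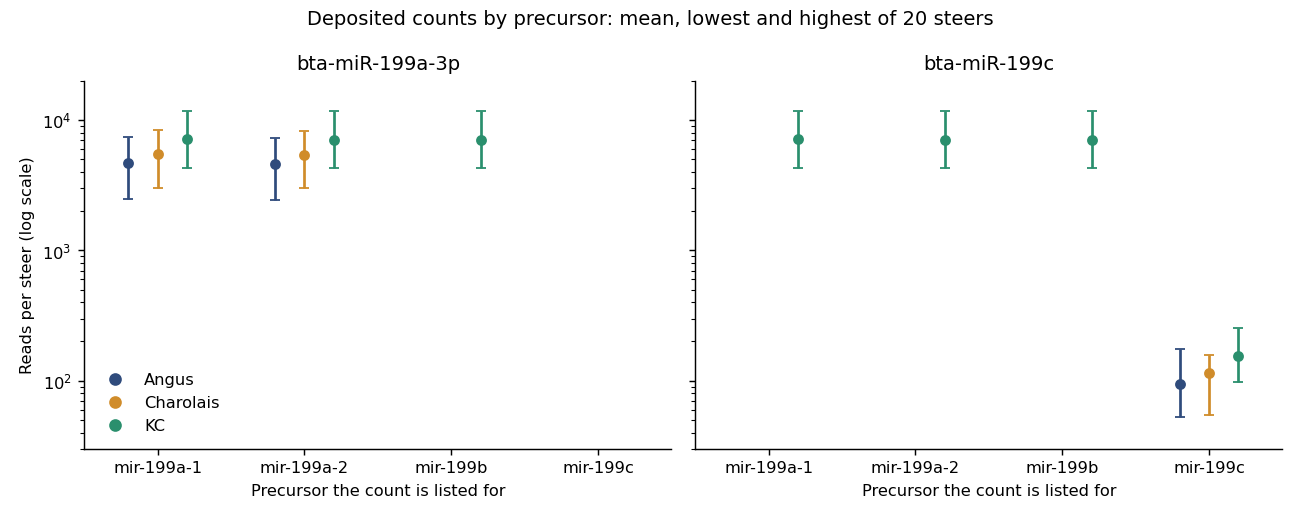
Deposited reads of bta-miR-199a-3p (left) and bta-miR-199c (right) per steer on a log axis, by the precursor they are listed for. Points are means of 20 steers and bars run from the lowest to the highest steer; for KC, bta-miR-199c appears on 3 further precursors at 7069 to 7150 reads, the level of bta-miR-199a-3p, while on mir-199c the breed means lie between 94.7 and 153 reads.

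The libraries held between 1930861 and 6751788 counts after averaging, the Angus median being 3720340, that of Charolais 4405880 and that of KC 5538050. Levels are given as CPM, the usual read share scaled to a fixed library total, with totals adjusted by TMM, a correction for libraries dominated by a few miRNAs, and 3 counts equal 0.444 to 1.55 CPM. Every miRNA of the set was far above this floor in every steer. Only 2 libraries stood apart, both from steers without an RFI group. In Charolais replicate 7 bta-miR-10b reached 53346 CPM against at most 6849 CPM in the other 59 steers, and its TMM factor was 0.659. Angus replicate 3 had a factor of 0.707, where the other 58 libraries ran from 0.840 to 1.19. Calls between breeds are given with and without each of them. Log2 differences without a library are given only for bta-miR-199a-5p (Charolais replicate 7) and bta-miR-214 (Angus replicate 3).

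bta-miR-199a-3p, the 3p product of the miR-199a hairpins, was the most abundant at 1293 ± 193 CPM (SD, n = 60 steers), rank 41 by mean level among the 810 miRNAs with a count. Its 5p partner bta-miR-199a-5p followed at 278 ± 44.2 CPM and rank 79. bta-miR-199b, the 5p product of mir-199b, had 68.9 ± 21.4 CPM and bta-miR-214, the product of mir-214, had 35.5 ± 6.54 CPM. bta-miR-199c was lowest at 27.1 ± 4.53 CPM and rank 162. A CPM level counts reads without dividing by length, and the 5 sequences are 20 to 23 bases long.

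This order held within single animals for the upper 3 steps. bta-miR-199a-3p exceeded bta-miR-199a-5p, bta-miR-199a-5p exceeded bta-miR-199b, and bta-miR-199b exceeded bta-miR-214 in 60 of 60 steers each. bta-miR-214 exceeded bta-miR-199c in 55 of 60 and equalled it in 1, at a median ratio of 1.35 and a range of 0.612 to 2.03, so these neighbours do not differ in every animal.

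Most of the set varied less between animals than the median miRNA tested. The coefficient of variation over 60 steers was 14.9% for bta-miR-199a-3p, 15.9% for bta-miR-199a-5p, 16.7% for bta-miR-199c and 18.4% for bta-miR-214, where the median of the 393 miRNAs tested between breeds was 29.9%. bta-miR-199b was the exception among the 5 at 31.1%, with 210 of the 393 below it, where 60 to 96 lay below each of the others. The miRNAs compared were not matched for level. Counting error alone gives about 9.09% for bta-miR-199c and 8.19% for bta-miR-214 at their median counts of 121 and 149, against 1.32% for bta-miR-199a-3p.

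**Figure D2:**
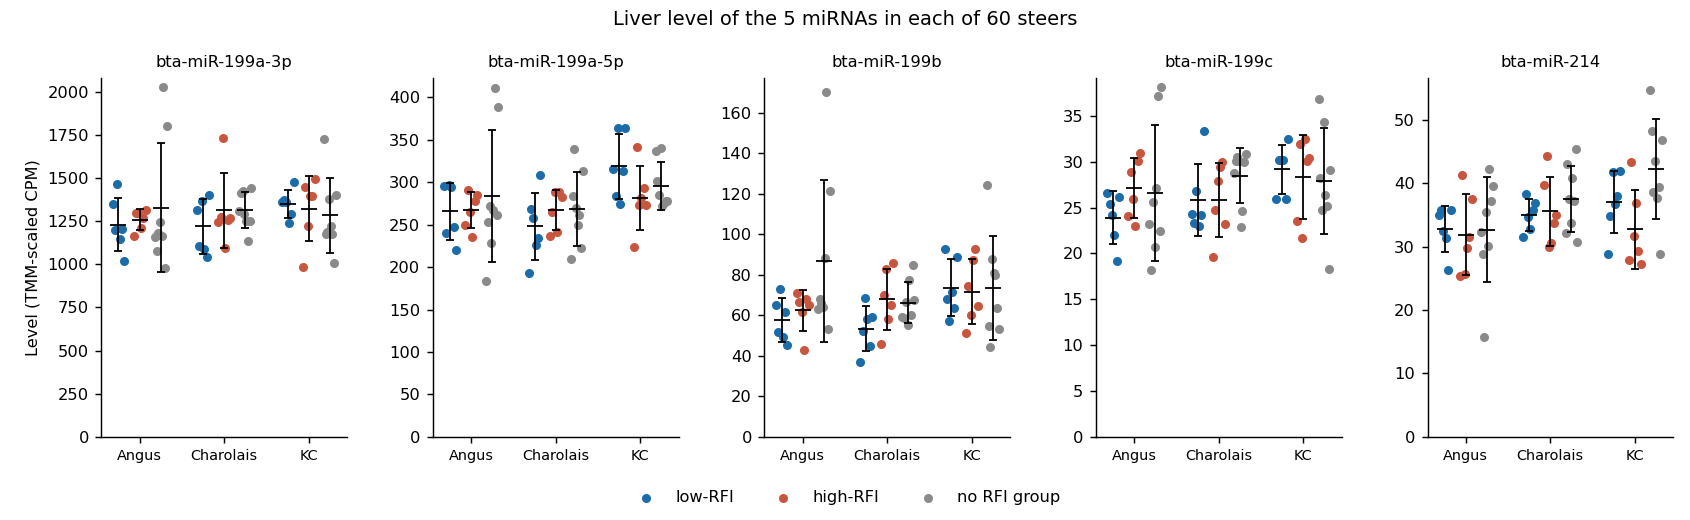
Level of each miRNA in TMM-scaled CPM on a linear axis from 0, 1 point per steer, by breed and RFI group. Black marks are the group mean and SD (n = 6, 6 and 8); groups overlap in every panel, and 2 Angus steers without an RFI group, at 2026 and 1799 CPM, are the highest for bta-miR-199a-3p.

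The Angus steers without an RFI group numbered replicates 6 and 8 had the 2 highest levels of bta-miR-199a-3p of all 60, 2026 and 1799 CPM. They also had the 2 highest Angus levels of bta-miR-199a-5p, bta-miR-199b and bta-miR-199c. For bta-miR-199a-5p they had 412 and 389 CPM, where the Angus median was 266 CPM. For bta-miR-199b they had 171 and 121 CPM, beside an Angus median of 65.2 CPM. For bta-miR-199c they had 37.2 and 38.1 CPM, beside a median of 25.5 CPM. For bta-miR-214 the same steers had 42.3 and 39.6 CPM, and another Angus steer lay between them at 41.3 CPM. Both had the same sire. In that family of 6, Angus replicate 7 without an RFI group had the lowest Angus level of bta-miR-199a-3p at 978 CPM. The family thus spanned the whole Angus range of bta-miR-199a-3p, but not that of bta-miR-214, where its lowest steer had 31.6 CPM. Its median was above that of the other 14 Angus steers for each of the 5 miRNAs. A difference between sires was not tested. The lowest bta-miR-214 of all 60 steers, 41 reads or 15.7 CPM, was in Angus replicate 3 without an RFI group, the library with the low TMM factor, and the next lowest was 25.3 CPM.

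Ratios between the miRNAs were taken within each steer. There were 4.70 ± 0.623 reads of bta-miR-199a-3p for each read of bta-miR-199a-5p (SD, n = 60), between 3.62 and 6.80 in single steers. The Angus mean was 4.71 ± 0.547, that of Charolais 4.96 ± 0.721 and that of KC 4.43 ± 0.484 (n = 20 each). In KC bta-miR-199a-3p was also listed for mir-199b, the precursor of bta-miR-199b. For each read of both 5p miRNAs together there were 3.77 ± 0.473 reads of bta-miR-199a-3p (SD, n = 60), between 2.95 and 5.70. bta-miR-199b made up 19.7% ± 3.44 of the summed reads of both 5p miRNAs, between 13.4% and 29.3% in single steers. Its breed means were 20.1%, 19.4% and 19.5%. bta-miR-199c amounted to 2.10% ± 0.252 of bta-miR-199a-3p, between 1.57% and 2.70%, where Angus had a mean of 2.04%, Charolais 2.11% and KC 2.16%. With all deposited pairs this KC share was 75.5%. bta-miR-214 amounted to 12.96% ± 2.57 of bta-miR-199a-5p, its ratio having the widest relative spread at 19.9%, beside 11.98% for bta-miR-199c to bta-miR-199a-3p. Summing precursors instead of averaging them raises both miR-199a products and lowers the shares that are taken of them.

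To ask whether feed efficiency went with these miRNAs, low-RFI and high-RFI steers were compared within each breed by edgeR's quasi-likelihood F test, with a call set at p under 0.05 before adjustment together with a change of more than 1.5-fold. None of the 5 was called in any breed. Of all miRNAs tested, 2.41% were called in Angus, 1.88% in Charolais and 1.86% in KC, so a count of 0 among 5 is near this background and is no result about the set. Across the 36 steers with breed as a term, 0 of 5 were called, with 0.711% of 422 miRNAs called, and the RFI difference by breed interaction called 0 of 5, with 0% of 422 called at an adjusted p under 0.05 (17 of 422, and 0 of the 5, had an unadjusted p under 0.05).

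The largest RFI difference was that of bta-miR-199b in Charolais. Low-RFI steers had 37.1, 52.2, 68.6, 58.2, 44.8 and 59.2 CPM, and the lowest, the median and the highest of the high-RFI steers were 45.7, 67.6 and 85.8 CPM. Of 6 low-RFI steers, 5 were below the high-RFI median, and the groups overlapped. The log2 fold change, low-RFI minus high-RFI, was -0.36 (SE 0.16), a fold of 0.778 with a 95% interval of 0.611 to 0.989. Its edgeR p of 0.0411 became 0.865 after Benjamini-Hochberg adjustment over 373 miRNAs, and an exact two-sided permutation test of log2 CPM gave p = 0.102. In Angus the log2 difference of bta-miR-199b was -0.08 (SE 0.13) and in KC 0.03 (SE 0.16).

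Fitting sire as a block brought bta-miR-199b in Charolais to a log2 fold change of -0.73 and past both limits, with an edgeR adjusted p of 0.336. In the same kind of fit bta-miR-199b in Angus was at -0.49 (adjusted p = 0.713) and in KC at 0.15 (adjusted p = 0.999), without a call. The Charolais fit rests on 6 residual degrees of freedom and on 1 sire of 5 with steers in both RFI groups. That sire had 4 high-RFI steers and 1 low-RFI steer, Charolais low-RFI replicate 1. This steer had the lowest bta-miR-199b of all 60, 37.1 CPM (98 reads), so the value of -0.73 turns on 1 animal.

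bta-miR-199c in Angus had 26.6, 25.4, 24.2, 22.04, 19.1 and 26.2 CPM in the low-RFI steers and between 23.0 and 30.9 CPM in the high-RFI steers, whose median was 27.4 CPM. All 6 low-RFI steers were below that median and the ranges overlapped. The difference was -0.15 on the log2 scale (SE 0.12, edgeR adjusted p = 0.969), and the exact permutation p was 0.1104.

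bta-miR-199a-5p in KC had 315, 284, 364, 274, 313 and 364 CPM in the low-RFI steers against 224 to 342 CPM in the high-RFI steers, with a median of 277 CPM. The fold was 1.13 with a 95% interval of 0.962 to 1.32 (edgeR adjusted p = 0.994, exact permutation p = 0.113). For bta-miR-214 in KC the low-RFI mean was 37.0 ± 4.92 CPM and the high-RFI mean 32.7 ± 6.26 CPM (SD, n = 6 each), a fold of 1.13 with an interval of 0.912 to 1.39 and an exact permutation p of 0.195. In both cases 5 of the 6 low-RFI animals exceeded the median of the high-RFI animals, and the groups overlapped.

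bta-miR-199a-3p was the best counted of the set. For Angus its low-RFI to high-RFI fold was 1.003 (95% interval 0.898 to 1.12), for Charolais 0.924 (0.772 to 1.105) and for KC 1.02 (0.885 to 1.17), beside 0.977 over the 3 breeds (0.904 to 1.06). Group means were 1230 ± 155 and 1258 ± 60.4 CPM in Angus, 1219 ± 158 and 1312 ± 217 CPM in Charolais, and 1351 ± 81.7 and 1323 ± 189 CPM in KC (low-RFI and high-RFI, SD, n = 6 each). Of the 15 intervals within breeds, only that of bta-miR-199b in Charolais reached a 1.5-fold change in either direction. Over the 36 steers, every fold lay between 0.908 for bta-miR-199b and 1.05 for bta-miR-214, with no interval beyond 0.793 to 1.165.

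**Figure D3:**
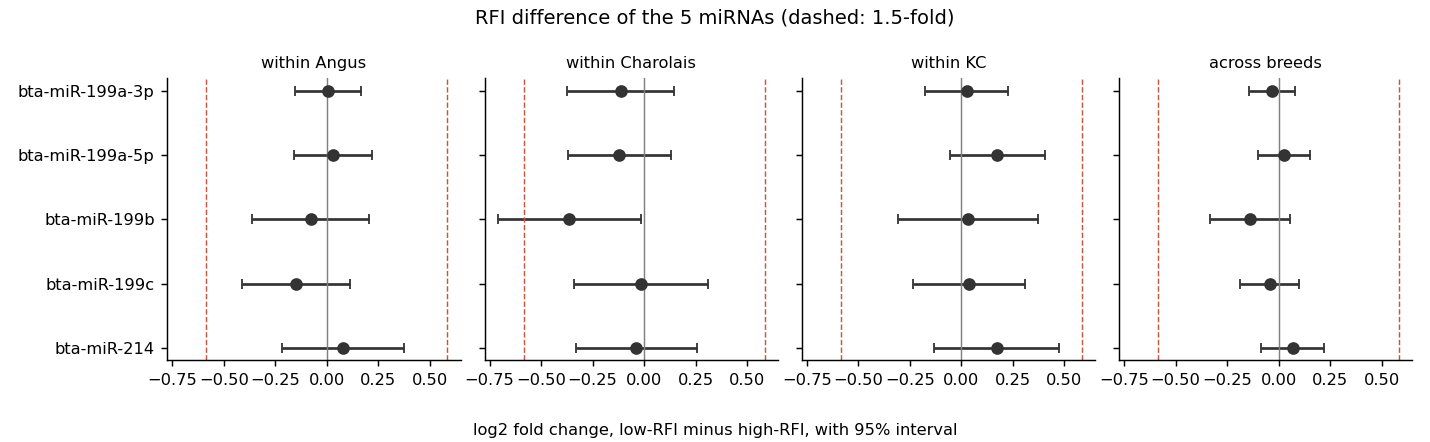
log2 fold change of low-RFI minus high-RFI steers for each miRNA within Angus, Charolais and KC (6 against 6) and over the 3 breeds (18 against 18), with 95% intervals from edgeR. Dashed lines mark a 1.5-fold change, and only the interval of bta-miR-199b in Charolais, from -0.71 to -0.02, crosses one of them.

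Breeds were compared over all 60 steers at an adjusted p under 0.05. KC libraries also had the highest median total and the further listed pairs. Breed cannot be told apart from any difference in how the reads of each breed were counted. A breed difference was called for 0 of the 5 miRNAs and for 15.3% of 393 tested. By pairs of breeds, 0 of 5 were called for Charolais minus Angus (1.53% of all called), 0 of 5 for KC minus Angus (7.12%) and 0 of 5 for KC minus Charolais (11.7%). An unadjusted p under 0.05 was reached by 2 of the 5 in the test over the 3 breeds, bta-miR-199a-5p and bta-miR-214. Of all 393 tested, 124 reached it, so 2 of 5 is near this background and is no result about the set. Leaving out either library that stood apart gave 0 of 5 in each comparison as well. The share of all miRNAs called in those fits is not given.

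bta-miR-199a-5p came nearest to a call. It ranged from 184 to 412 CPM in Angus with a median of 266, from 193 to 339 CPM in Charolais with a median of 263, and from 224 to 364 CPM in KC with a median of 285, so all 3 ranges overlapped. KC exceeded Charolais by 0.18 on the log2 scale (SE 0.07), a fold of 1.13 with an interval of 1.04 to 1.24 and an edgeR adjusted p of 0.0576. The adjusted p was 0.0499 by the likelihood-ratio test, 0.0492 by DESeq2 and 0.0426 after thinning all libraries to the lowest total, so the call turns on the method. Without Charolais replicate 7 the log2 difference was 0.17 and the adjusted p 0.0744.

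bta-miR-214 ranged from 15.7 to 42.3 CPM in Angus with a median of 32.4, from 30.02 to 45.4 CPM in Charolais with a median of 35.4, and from 27.3 to 54.7 CPM in KC with a median of 37.9. KC minus Angus was 0.21 on the log2 scale (SE 0.08, edgeR adjusted p = 0.109), and 0.17 (adjusted p = 0.173) without Angus replicate 3, the steer with the lowest level. Within KC the steers without an RFI group had the highest mean of bta-miR-214, 42.3 ± 7.87 CPM (SD, n = 8), beside 37.0 and 32.7 CPM in the RFI groups. Since the labels of these steers do not say whether their RFI was high or low, this difference says nothing about RFI.

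bta-miR-199a-3p had 1278 ± 246 CPM in Angus, 1285 ± 158 CPM in Charolais and 1316 ± 172 CPM in KC (SD, n = 20 each). Its fold was 0.999 for Charolais against Angus (95% interval 0.915 to 1.09), 1.02 for KC against Angus (0.934 to 1.11) and 1.02 for KC against Charolais (0.935 to 1.11). bta-miR-199b had 70.8 ± 28.8, 62.9 ± 13.2 and 73.0 ± 19.1 CPM, with its largest difference, KC minus Charolais, at 0.21 on the log2 scale (SE 0.12, edgeR adjusted p = 0.269).

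bta-miR-199c had 25.9 ± 5.20 CPM in Angus, 26.9 ± 3.67 CPM in Charolais and 28.4 ± 4.47 CPM in KC. KC minus Angus was 0.12 on the log2 scale (SE 0.07, adjusted p = 0.352) and KC minus Charolais 0.08 (SE 0.07, adjusted p = 0.607). With all deposited pairs the same comparisons gave 5.22 (adjusted p = 6.2e-57) and 5.19 (adjusted p = 5.81e-57), and bta-miR-199c was then 1 of 5 called in the test over 3 breeds, in KC minus Angus and in KC minus Charolais. In those fits 21.6%, 14.3% and 15.8% of all miRNAs were called, more than with the shared pairs.

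**Figure D4:**
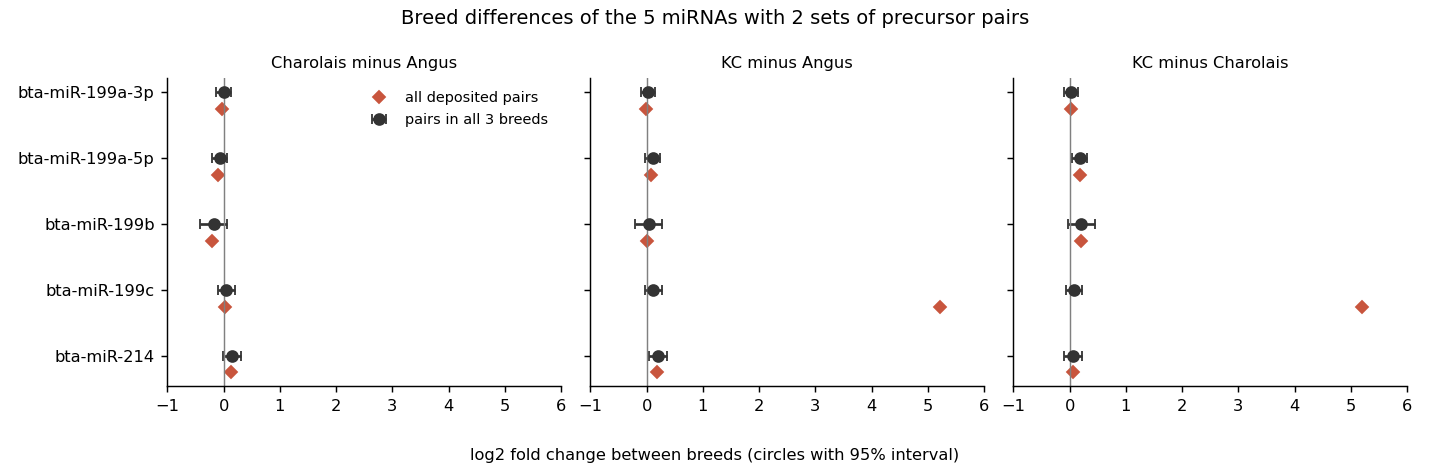
log2 fold change between breeds for each miRNA from edgeR over 60 steers. Circles with 95% intervals use the precursor pairs listed for all 3 breeds and lie between -0.17 and 0.21, while diamonds use all deposited pairs, where bta-miR-199c in KC is at 5.22 against Angus and 5.19 against Charolais and the other 4 miRNAs stay between -0.20 and 0.21.

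With 1 steer per sire label, 23 in all, 0 of 5 miRNAs were called in each breed comparison, but differences from KC were larger. The share of all miRNAs called in these fits is not given, so 0 of 5 is no result about the set. For bta-miR-199b, KC minus Charolais was then 0.53 on the log2 scale (edgeR adjusted p = 0.130) and KC minus Angus 0.31 (adjusted p = 0.467). For bta-miR-199a-5p these differences were 0.32 (adjusted p = 0.134) and 0.30 (adjusted p = 0.440), and for bta-miR-214 they were 0.15 (adjusted p = 0.782) and 0.29 (adjusted p = 0.467).

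Half-sib families of at least 4 steers were laid beside the rest of their breed as a description. In Angus, a family of 5 steers had a median bta-miR-214 level of 30.2 CPM beside 34.9 CPM in the other 15 Angus steers, and a family of 6 had 38.4 CPM beside 30.8 CPM in the other 14. For bta-miR-199a-3p, the family of 5 spanned only 1147 to 1244 CPM while the family of 6 spanned 978 to 2026 CPM. In the family of 8 Charolais steers bta-miR-199a-3p had a median of 1311 CPM beside 1255 CPM in the other 12, and in that of 8 KC steers 1230 CPM beside 1369 CPM in the other 12.

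Whether the 5 miRNAs vary together was asked over the 60 steers, on log2 CPM after each breed's mean was subtracted, for 10 pairs. The 4 miR-199 miRNAs varied together. Pearson's r was 0.70 and Spearman's rho 0.68 between bta-miR-199a-3p and bta-miR-199c. Between bta-miR-199a-3p and bta-miR-199a-5p, the 3p and 5p products listed for the same 2 precursors, r was 0.66 (rho 0.61). Between bta-miR-199a-3p and bta-miR-199b, whose precursor mir-199b was also listed for bta-miR-199a-3p in KC, r was 0.66 (rho 0.50). All 3 had an adjusted permutation p for r of 2.5e-05 with 100000 reorderings of steers within breeds, the smallest such value here. The 6 pairs among the miR-199 miRNAs had r from 0.52 to 0.70.

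Without the 2 steers farthest from the median of the first miRNA, r was 0.61, 0.53 and 0.50 for the 3 pairs just given, and the lowest r among the miR-199 pairs was 0.38. Within breeds, r between bta-miR-199a-3p and bta-miR-199c was 0.73 for Angus, 0.45 for Charolais and 0.84 for KC, and r between bta-miR-199a-3p and bta-miR-199a-5p was 0.80, 0.46 and 0.64. Between bta-miR-199b and bta-miR-199c it was 0.64 for Angus and 0.52 for KC, but only 0.28 for Charolais (rho 0.16). bta-miR-199c and bta-miR-199a-3p share 19 bases, and the part of these shared bases in their correlation was not tested.

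bta-miR-214 followed the others less. Its r was 0.34 with bta-miR-199c (rho 0.33, adjusted permutation p = 0.0168), 0.31 with bta-miR-199a-5p (rho 0.33, adjusted permutation p = 0.031), 0.28 with bta-miR-199a-3p (rho 0.22, adjusted permutation p = 0.0475) and 0.20 with bta-miR-199b (rho 0.13, adjusted permutation p = 0.15). With bta-miR-199a-3p, rho itself gave an adjusted permutation p of 0.116. In Charolais r of bta-miR-214 with bta-miR-199a-3p was -0.14 and with bta-miR-199c -0.17, while in KC it was 0.43 and 0.56. With the 2 farthest steers left out its r ran from 0.07 to 0.27. Its precursor and mir-199a-1 overlap the same genes, DNM3 and LOC132342463. bta-miR-199c had fewer reads and a larger counting error than bta-miR-214. The part of counting error in these correlations was not tested.

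For each miRNA the 3 miRNAs outside the set with the highest rho were taken from 388 candidates, as a description. bta-miR-224 led for bta-miR-199a-3p (rho 0.68) and bta-miR-199a-5p (rho 0.55), and was second for bta-miR-199c (rho 0.50). bta-miR-181d led for bta-miR-199b (rho 0.74) and bta-miR-199c (rho 0.50) and was the third for bta-miR-199a-3p (rho 0.52). bta-miR-199b was followed next by bta-miR-181c (rho 0.65) and bta-miR-10b (rho 0.57). bta-miR-224 and bta-miR-181d had means of only 20.7 and 14.0 CPM. The others were bta-miR-497 (0.53) for bta-miR-199a-3p, bta-miR-450a (0.50) and bta-miR-125a (0.46) for bta-miR-199a-5p, and bta-miR-141 (0.44) for bta-miR-199c. For bta-miR-214 the highest were bta-miR-99b (0.39), bta-miR-195 (0.35) and bta-miR-483 (0.33), lower than for any miR-199 miRNA. The median rho over the tested miRNAs lay between -0.01 and 0.03 for the 5. All points share the library and its scaling.

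The stellate-cell label was set beside miRNAs of other mesenchymal cells, namely bta-miR-143 and bta-miR-145 of smooth muscle and myofibroblasts, bta-miR-10b, bta-miR-125b, bta-miR-100, bta-miR-99a-5p, bta-miR-130a and bta-miR-218. The correlation (Spearman's rho) was positive with 8 of these 8 for bta-miR-199a-5p (0.11 to 0.37), bta-miR-199b (0.10 to 0.57), bta-miR-199c (0.09 to 0.37) and bta-miR-214 (0.15 to 0.31). For bta-miR-199a-3p, the most abundant of the set, it was positive with 3 of 8, at -0.14 with bta-miR-143 and -0.25 with bta-miR-145, and at most 0.36. The median rho of bta-miR-199a-3p with this list was -0.02. These correlations do not bear out the label for bta-miR-199a-3p, so the set is named here by its families. Bulk counts assign no miRNA to a cell type.

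Against 5 hepatocyte miRNAs (bta-miR-122, bta-miR-885, bta-miR-192, bta-miR-194 and bta-miR-148a), rho ran from -0.34 to 0.22 over the 5 miRNAs. The 6 biliary epithelial miRNAs gave a median rho of 0.49 for bta-miR-199b and 0.29 for bta-miR-199a-3p, beside medians of 0.31 and -0.02 with the mesenchymal list. For bta-miR-199c these medians were 0.27 (biliary) and 0.25 (mesenchymal), for bta-miR-199a-5p 0.20 and 0.23, and for bta-miR-214 0.03 and 0.24. Within the biliary list bta-miR-31 went apart. It had the lowest rho with each miR-199 miRNA, from -0.06 for bta-miR-199b and bta-miR-199c to 0.16 for bta-miR-199a-3p, and the highest with bta-miR-214, 0.26. The endothelial bta-miR-126-5p and bta-miR-126-3p were at 0.21 to 0.39 with bta-miR-199a-3p and at -0.45 to -0.27 with bta-miR-214. Medians with 7 leukocyte miRNAs were 0.07 to 0.19, with 3 erythroid miRNAs -0.14 to 0.12, with 3 tested muscle miRNAs -0.25 to -0.02, and with the 3 miRNAs of the antifibrotic miR-29 family -0.17 to 0.17.

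**Figure D5:**
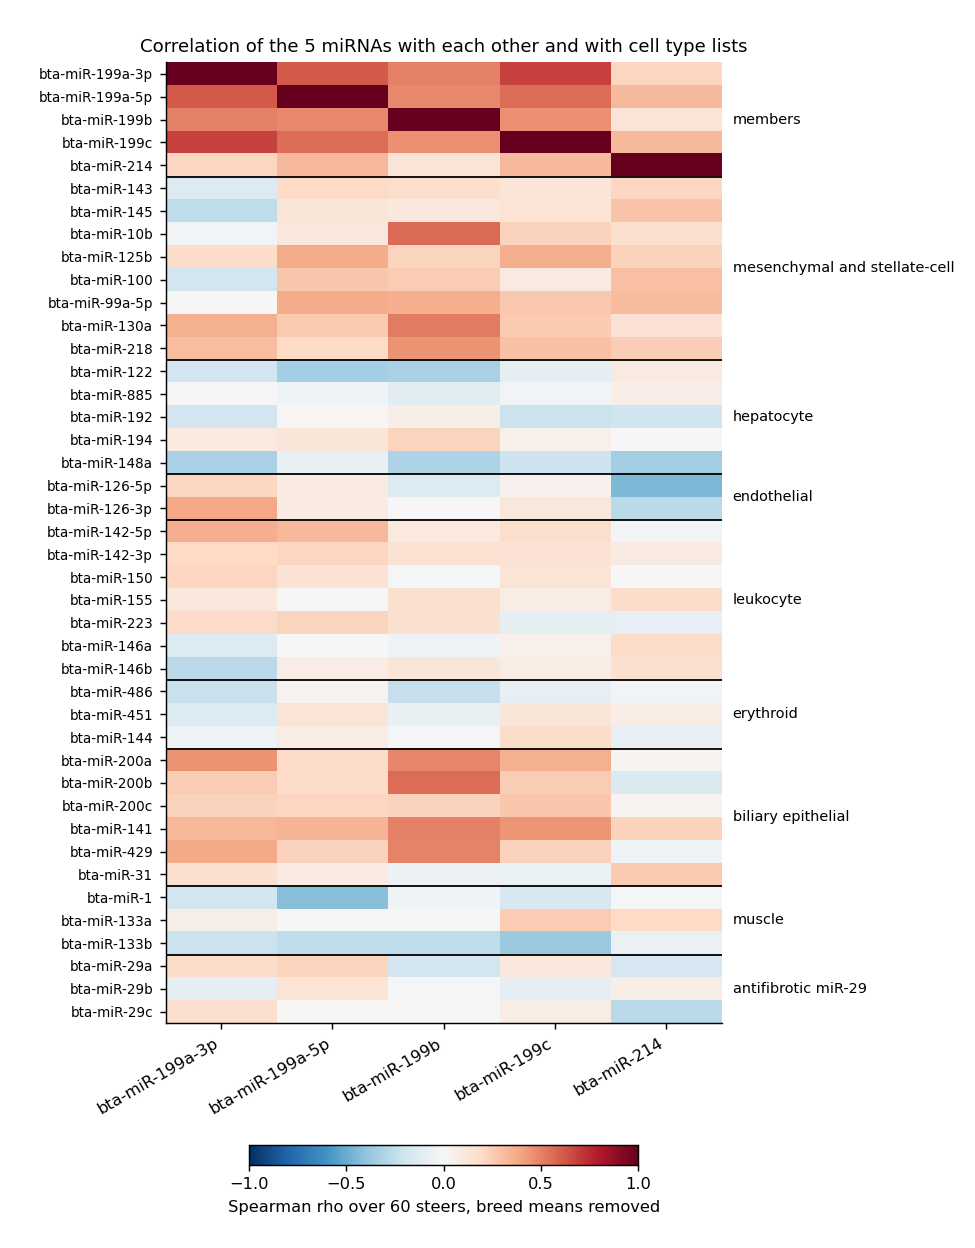
Spearman rho over 60 steers, breed means removed, of each of the 5 miRNAs (columns) with the set itself and with the miRNAs of 8 lists (rows); red is positive and blue negative. The block of the 4 miR-199 miRNAs is red, with rho from 0.46 to 0.68, the column of bta-miR-214 is paler, and the mesenchymal rows are blue or white for bta-miR-199a-3p in 5 of 8.

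No list was at 0 in any steer, although bta-miR-206 of the muscle list reached only 0.316 CPM. Summed levels of the mesenchymal list ran from 130848 to 305180 CPM in Angus, 132744 to 469608 CPM in Charolais and 141971 to 272126 CPM in KC, of which bta-miR-143 alone had a mean of 171830 CPM over the 60 steers. Those of the biliary list ran from 303 to 522, 339 to 501 and 341 to 475 CPM, and those of the muscle list from 19.9 to 51.9, 20.8 to 62.3 and 27.6 to 60.3 CPM. Between breeds, 3 of the 8 mesenchymal miRNAs were called, beside 15.3% of all miRNAs tested. bta-miR-100 (fold 1.44, edgeR adjusted p = 0.00715) and bta-miR-125b (fold 1.31, adjusted p = 0.000181) rose in KC against Charolais, and bta-miR-130a fell in KC against Angus (fold 0.849, adjusted p = 0.0252). In the same test 2 of 5 hepatocyte and 2 of 7 leukocyte miRNAs were called. For RFI none of the mesenchymal, hepatocyte, endothelial, erythroid, biliary or miR-29 miRNAs was called in any breed, and the calls were bta-miR-223 of the leukocyte list in KC and 1 muscle miRNA in Charolais.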

How the data were processed

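Liver small RNA of 60 steers was sequenced, 1 library for each animal. Adapters were trimmed by the authors (cutadapt 1.16), who kept reads by length, removed other small RNAs, aligned with Bowtie 1.1.1 to UMD3.1 and counted known miRNAs with miRDeep2. They deposited raw read counts per miRNA and precursor pair, without normalization.

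Steers were grouped by their labels. Counts of the pairs listed for all 3 breeds were averaged over precursors, as the authors averaged, and rounded. edgeR 4.0.16 (limma 3.58.1, R 4.3.3) was run with TMM and the quasi-likelihood F test on miRNAs that reached 1 CPM in 6 or more steers (RFI) or 20 or more (breeds), low-RFI minus high-RFI, with Benjamini-Hochberg adjustment over all miRNAs tested. Intervals are 95%. RFI calls followed the study (p under 0.05, fold change above 1.5), breed and interaction calls an adjusted p under 0.05. The exact permutation test ran through the 924 ways to relabel 12 animals, with log2 CPM (prior count 0.5), whose smallest p is 0.00216. The code was tested on simulated data. Within-breed fits scale 12 libraries and printed CPM 60, so small fold changes need not equal ratios of printed means. DESeq2 1.42.0 and Python 3.11.15 (numpy 2.4.6, scipy 1.17.1, pandas 2.3.3, matplotlib 3.10.9) served for the rest. The 3-count floor and counting errors cover counting error only, since PCR reads are not independent molecules.

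Named are the 5 miRNAs, the cell type lists, and for each of the 5 the 3 other miRNAs with the highest rho. Members, lists and tests were chosen with earlier results of these data known. Mature sequences were read from the study's supplementary table and overlapping genes from RefSeq (ARS-UCD2.0), whose coordinates are not given because the files use UMD3.1. Alternatives covered pairs, precursors, normalization, filters, tests, depth, steers and sires; leaving out 2 libraries was added after seeing the data.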

Additional observations from a re-analysis of the deposited data

Results flagged for a closer look

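In 3 cases a single steer stood off from its group by Dixon's test at the 95% level, of 45 groups of 6 or 8 steers tested, where chance flags about 1 in 20. In Angus high-RFI replicate 4, bta-miR-199b was lowest at 42.9 CPM (138 reads), beside 61.7 CPM in the next steer. In Charolais high-RFI replicate 3, bta-miR-199a-3p was highest at 1733 CPM (8310 reads), beside 1274 CPM in the next. In Charolais low-RFI replicate 6, bta-miR-199c was highest at 33.4 CPM (124 reads), beside 26.8 CPM in the next.

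Reads were also listed for KC pairs that enter no main comparison, on which no Angus or Charolais count was listed. The mean count of bta-miR-199c over 20 KC steers was 7150 on mir-199a-1, 7069 on mir-199a-2 and 7069 on mir-199b, where its own precursor had 153. The mean count of bta-miR-199a-3p on mir-199b was 7069.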

How the results depend on the processing

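None of the 5 miRNAs was called in any comparison by the reported tests. Over the alternatives run, 432 of 475 log2 fold changes kept their direction and side of the threshold, 6 passed it and 37 changed sign. With all deposited pairs, 1 of 5 was called in each of the breed difference, KC minus Angus and KC minus Charolais, which was bta-miR-199c. For KC minus Charolais, 1 of 5 (bta-miR-199a-5p) was called by the likelihood-ratio test (0.18), by DESeq2 (0.18) and after thinning to equal depth (0.20). The reported fit called 11.7% of all miRNAs in this comparison. With sire as a block, 1 of 5 (bta-miR-199b, -0.73) was called for RFI within Charolais. That block fit sets 1 low-RFI steer against 4 high-RFI steers of its sire. Apart from all deposited pairs, the share of all miRNAs called under an alternative is not given. Such counts are therefore no result about the set. The causes of these changes were not tested, except that the extra KC counts enter bta-miR-199c by construction. DESeq2 called 0 of 5 for RFI in every breed.

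The sign changes, as log2 fold changes, were these. For bta-miR-199a-3p in Charolais minus Angus (-0.0019 as reported) they were 0.0031 with DESeq2 size factors, 0.024 with upper-quartile scaling, 0.0085 with no filter, 0.0015 with at least 10 counts in every steer, 0.0032 by DESeq2, 0.0028 thinned and 0.00083 in the 36 RFI steers. For its RFI difference within Angus they were -0.023 with summed precursors, -0.0066 with DESeq2 size factors, -0.017 with upper-quartile scaling, -0.026 with no filter, -0.018 with at least 10 counts in every steer, -0.0063 by DESeq2, -0.0081 in one fit of 36 steers and -0.14 with sire as a block. Its KC minus Angus was -0.0020 with all pairs. In the 36 RFI steers bta-miR-199c was -0.0096 in Charolais minus Angus and bta-miR-214 was -0.012 in KC minus Charolais. With library totals alone, RFI across breeds gave 0.015 for bta-miR-199a-3p and 0.00029 for bta-miR-199c, and RFI within Charolais gave 0.050 for bta-miR-199c and 0.026 for bta-miR-214. Within Charolais bta-miR-199c was 0.0068 with summed precursors and 0.0059 with no filter. Thinning gave -0.032 for bta-miR-199b in KC minus Angus, -0.00043 for bta-miR-199a-3p for RFI in KC, and for bta-miR-214 -0.025 for RFI across breeds, -0.033 in Angus, 0.022 in Charolais and -0.046 in KC. Upper-quartile scaling gave, for RFI in KC, -0.022 for bta-miR-199a-3p, -0.014 for bta-miR-199b and -0.011 for bta-miR-199c. With sire as a block bta-miR-199a-3p was 0.038 in Charolais and -0.038 in KC, and bta-miR-199a-5p was -0.045 in Angus and -0.094 in KC.

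No paired analysis was possible because replicate numbers only name steers in order and pair none across groups. With 41 to 11794 reads per steer, depth limits bta-miR-214 and bta-miR-199c most.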
